A study of Mus musculus with 10 samples.

Results

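Mesothelial marker genes were followed in myofibroblastic cancer-associated fibroblasts (myCAFs) of mouse pancreatic tumours, sorted by surface CD90. The genes were Msln, Upk3b, Lrrn4, Wt1, Nkain4, Bnc1, Muc16, Gpm6a, Upk1b and Calb2. They were chosen as markers of the mesothelium and make up 10 of 48471 genes whose transcripts could be named. Of these 10, 9 passed the filter on low counts, beside 15378 genes in all.

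The series holds 10 libraries from C57BL/6J mice, 5 of CD90-negative and 5 of CD90-positive myCAFs. All tumours grew from KPC T-LOH organoids, a line of mouse pancreatic ductal adenocarcinoma (PDAC), placed orthotopically, and neither fraction received a treatment that the labels name. Both fractions of a tumour pool carry the same animal numbers in their titles. Pools 1 to 5 held 4, 1, 2, 3 and 1 animals by these titles, 11 in all, while the design text speaks of 5 male mice, and n is given as pools. No source used here states the age of the mice or the gates besides that on CD90. A pool mixes its animals, so the spread between pools can understate that between mice.

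The mesothelium is the single layer of cells that lines the body cavities and covers the organs in them, the pancreas included. Its cells carry keratins like an epithelium and vimentin and WT1 like a mesenchyme. In mouse pancreatic cancer, mesothelial cells have been described as a source of antigen-presenting CAFs. Some of the marker genes are also made by other cells of pancreatic tumours. MSLN and MUC16 are known antigens of human pancreatic cancer cells, and WT1 is also found in some fibroblasts.

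Total estimated counts ran from 33.3 to 47.7 M in CD90-negative and from 11.7 to 38.2 M in CD90-positive libraries. Counts on nuclear protein-coding genes ran from 3.71 to 19.8 M and from 4.57 to 28.5 M. Mitochondrial rRNA took 35.6% to 84.4% of the gene-assigned counts of CD90-negative and 10.5% to 44.8% of those of CD90-positive libraries. It was higher in the CD90-negative fraction of every pool, and its part in the results below was not tested other than by 1 fit with it as a covariate. Thy1, which encodes CD90 and checks the sort, averaged 8.47 ± 5.18 CPM in CD90-negative cells, against 89.1 ± 29.5 CPM in CD90-positive cells, and was lower in 5 of 5 pools (SD, n = 5 pools). CPM are counts divided by a library size adjusted with a scaling factor (TMM), so their sum differs between libraries. The factors ran from 0.204 in the CD90-negative library of pool 4 to 1.95 in the CD90-positive library of pool 3. The former library, with 46.0 M gene-assigned counts, was thus scaled as 9.36 M.

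Marker RNA of the mesothelium was present in both fractions. Msln rose in the CD90-negative fraction. The 8 other tested genes had lower means there, but none of them passed the test, and the size of the difference varied widely between pools. Of the 9 genes tested by edgeR, 1 was called higher and 0 lower at an adjusted p under 0.05, and 5 of the 8 others were lower at an unadjusted p under 0.05. Over all 15378 genes the adjusted rule called 12.9%, made up of 5.83% higher and 7.05% lower, and 14.0% were lower at an unadjusted p under 0.05. The median log2 fold, CD90-negative over CD90-positive, was -1.51 over the 9 genes and -1.57 over the 8 without Msln, beside 0.04 over all genes tested. DESeq2 called 7 of the 8 lower, beside 11.8% of all genes, and limma-voom 1, beside 7.54%. In bulk libraries, fewer cells of a type and less RNA per cell cannot be told apart.

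**Figure D1:**
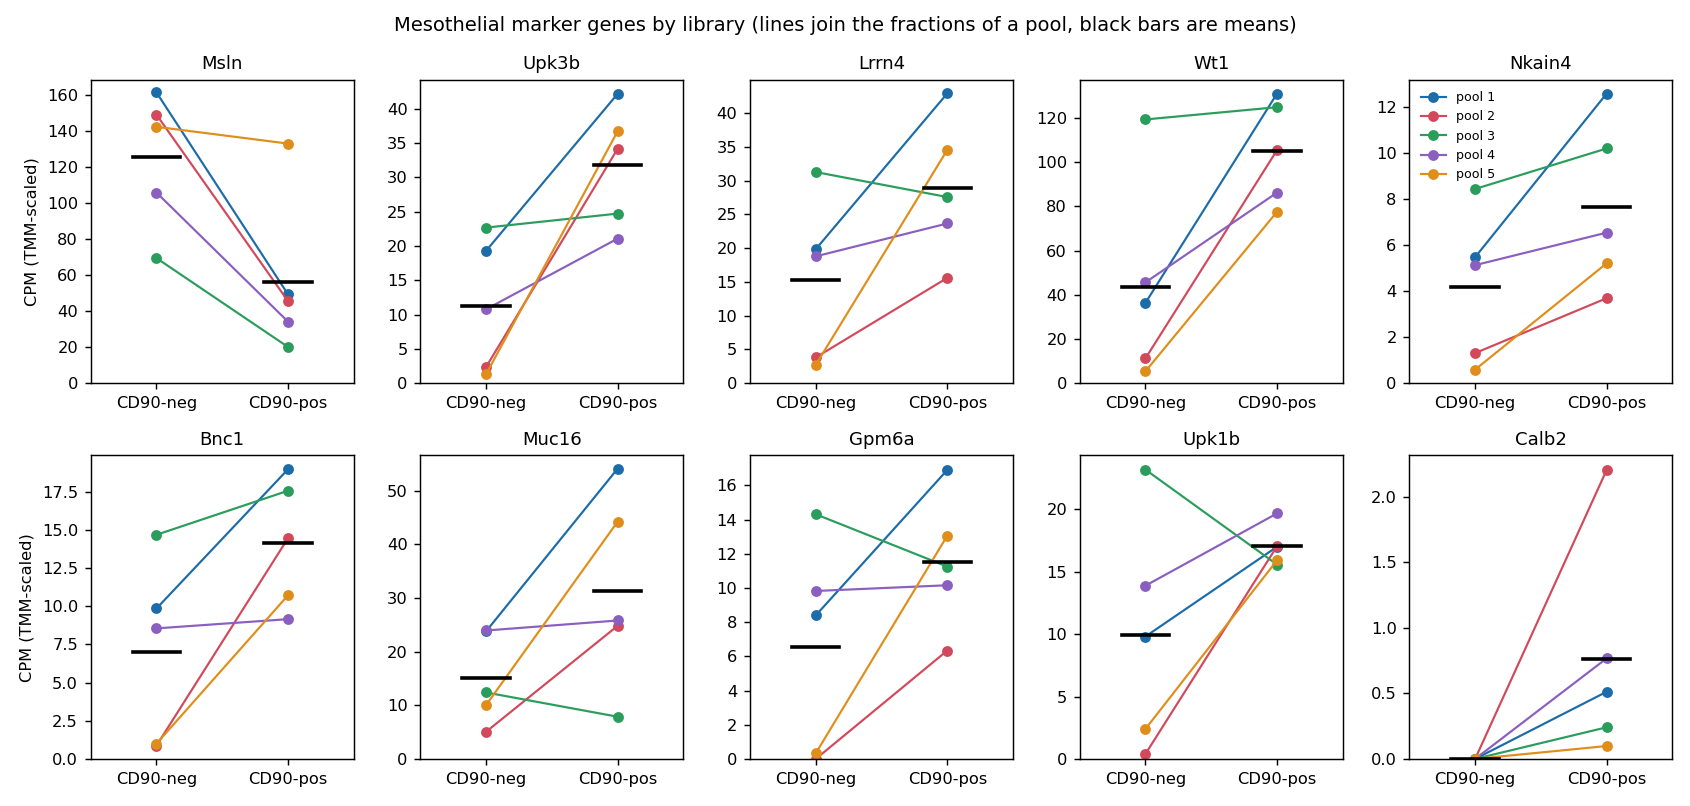
CPM of the 10 mesothelial marker genes (vertical axes, from 0) in the CD90-negative and CD90-positive library of each pool, joined by a line, with black bars for the mean of 5 libraries. Msln lies higher in CD90-negative libraries, and the means of the other genes lie lower there; in pool 3 Lrrn4, Muc16, Gpm6a and Upk1b are higher in the CD90-negative library.

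Msln encodes mesothelin, a glycosylphosphatidylinositol-anchored surface protein that binds the mucin MUC16. It stood at 161, 149, 69.5, 106 and 142 CPM in the CD90-negative libraries of pools 1 to 5, against 49.3, 45.6, 20.1, 34.2 and 133 CPM in the CD90-positive ones. The fractions overlapped only through the CD90-positive library of pool 5, which reached the level of the CD90-negative libraries. The mean was 125.6 ± 37.6 CPM in CD90-negative cells, against 56.4 ± 44.3 CPM in CD90-positive cells (SD, n = 5 pools). The log2 fold of Msln was 1.40 (SE 0.25; edgeR adjusted p = 0.0077), higher in 5 of 5 pools. The pool-by-pool differences on the log2 CPM scale were 1.71, 1.71, 1.78, 1.63 and 0.10. Without the block for the pool the log2 fold was 1.16 (SE 0.44, edgeR adjusted p = 0.150). With a covariate for mitochondrial rRNA it was 0.35 (SE 0.74, edgeR adjusted p = 0.912). The covariate was higher in the CD90-negative library of every pool, so this fit can hardly separate it from the fraction.

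Epithelial markers were higher beside Msln in most pools. Cdh1, named after its values were seen, the epithelial cadherin, stood at 383, 208, 80.8, 191 and 364 CPM in CD90-negative and at 18.6, 46.3, 7.36, 55.0 and 183 CPM in CD90-positive libraries of pools 1 to 5. Pool 3 was lowest for both genes in both fractions, and the CD90-positive library of pool 5 was the highest of its fraction for both. Of 16 cancer epithelial markers, 9 rose and 0 fell, beside 5.83% higher and 7.05% lower of all genes, with a median log2 fold of 2.54. Krt18 and Krt8, the keratin pair of simple epithelia, had the smallest p of the list. Over the 10 libraries, which share pools and fractions, Pearson's r of log2 CPM between Msln and Cdh1 was 0.936, and that between Msln and Epcam, an epithelial adhesion protein, was 0.828, as a description. In the CD90-negative fraction 15, 10, 16, 15 and 14 of the 16 genes were higher in pools 1 to 5. In pool 2 the other 6 were lower, Epcam among them with a log2 difference of -1.24, while Msln was higher there by 1.71. The summed level of the list ran from 806 to 3195 CPM in CD90-negative and from 194 to 1699 CPM in CD90-positive libraries, with none of the 16 genes at 0 throughout a fraction. The part of epithelial RNA in the Msln values was not tested.

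Reads of Msln fell on 9 annotated transcripts, 5 of them without a coding type. Those 5 held 10.6% ± 2.15 of Msln counts in CD90-negative cells, against 10.3% ± 5.37 in CD90-positive cells (SD, n = 5 pools), so the counts lay mainly on coding transcripts in both fractions. The split among near-identical transcripts rests on Salmon's model.

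Wt1, a zinc-finger transcription factor of the mesothelium, kidney and gonad, had the highest mean level per length of the markers in CD90-positive cells. It stood at 36.4, 11.2, 119, 45.6 and 5.39 CPM in the CD90-negative libraries of pools 1 to 5, against 131, 105, 125, 86.2 and 77.5 CPM in the CD90-positive ones. The CD90-negative library of pool 3 lay within the CD90-positive range, and the other 4 lay below it. The log2 fold was -1.96 (SE 0.59; edgeR adjusted p = 0.0740), with a lower value in 5 of 5 pools. This was not called in the full fit, but it was without pool 3 (log2 fold -2.45, adjusted p = 0.0294) and by DESeq2 (adjusted p = 0.00986), limma-voom (0.0222) and edgeR on nuclear protein-coding genes alone (0.0490). Wt1 reads fell on 8 transcripts, and the 2 annotated as retained introns held 23.9% ± 9.31 of them in CD90-negative cells, against 28.8% ± 7.14 in CD90-positive cells (SD, n = 5 pools).

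Bnc1 encodes basonuclin 1, a zinc-finger protein of stratified epithelia, germ cells and mesothelium. It stood at 9.85, 0.872, 14.7, 8.54 and 0.997 CPM in CD90-negative and at 19.0, 14.4, 17.6, 9.15 and 10.7 CPM in CD90-positive libraries. The fractions overlapped in pools 1 and 3, whereas in pools 2 and 5 the CD90-negative libraries were below 1 CPM. Its log2 fold of -1.63 (SE 0.67) did not pass, with an edgeR adjusted p of 0.161, and was -1.06 without pool 2. Its paralog Bnc2, known from fibroblasts, fell, with a lower value in 5 of 5 pools (log2 fold -2.10, SE 0.32, edgeR adjusted p = 0.0047). Its means were 10.75 ± 6.38 CPM in CD90-negative cells, against 41.4 ± 6.89 CPM in CD90-positive cells (SD, n = 5 pools).

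Among the surface proteins, Upk3b and Lrrn4 are used as defining markers of mesothelial cells. Upk3b, a uroplakin, stood at 19.3, 2.38, 22.7, 10.8 and 1.33 CPM in CD90-negative libraries, against 42.2, 34.2, 24.7, 21.1 and 36.7 CPM in CD90-positive ones. Lrrn4, a leucine-rich repeat membrane protein, stood at 19.9, 3.82, 31.3, 18.8 and 2.73 CPM, against 43.0, 15.6, 27.6, 23.7 and 34.6 CPM. For both genes the CD90-negative libraries of pools 2 and 5 were the lowest of all 10. In pool 3 the 2 fractions lay close together, with Lrrn4 slightly higher in the CD90-negative one. The log2 folds were -2.04 for Upk3b (SE 0.75) and -1.32 for Lrrn4 (SE 0.53), with edgeR adjusted p values of 0.133 and 0.151, and that of Lrrn4 was -0.83 without pool 5.

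The promoter windows of Upk3b, Lrrn4 and Bnc1 are shown because these genes were low together in the CD90-negative libraries of pools 2 and 5. Each runs from 250 bases before to 50 after the RefSeq start (GRCm38.p6), and 5 of the 10 marker genes have such a window. The windows lie at chr5:136038246-136038545 (plus strand), chr2:132880813-132881112 (minus strand) and chr7:81992250-81992549 (minus strand). Capitals mark matches on either strand to 4 short motifs. The GC box was searched as GGGCGG. The core shared by WT1 and EGR factors was searched as GTGGGNG. For TEAD factors the letters were GGAATG. For GATA factors they were NGATAA.
Upk3b: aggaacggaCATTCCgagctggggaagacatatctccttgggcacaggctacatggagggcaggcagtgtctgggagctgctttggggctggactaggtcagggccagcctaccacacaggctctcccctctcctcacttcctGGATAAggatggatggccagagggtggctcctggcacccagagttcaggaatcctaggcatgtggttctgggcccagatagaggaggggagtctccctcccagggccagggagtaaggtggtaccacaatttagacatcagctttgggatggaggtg
Lrrn4: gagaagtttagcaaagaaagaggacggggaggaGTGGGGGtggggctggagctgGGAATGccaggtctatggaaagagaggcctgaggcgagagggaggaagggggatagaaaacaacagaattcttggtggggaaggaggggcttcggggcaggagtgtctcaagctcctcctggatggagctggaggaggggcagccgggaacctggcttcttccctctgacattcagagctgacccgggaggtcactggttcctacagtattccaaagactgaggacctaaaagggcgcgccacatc
Bnc1: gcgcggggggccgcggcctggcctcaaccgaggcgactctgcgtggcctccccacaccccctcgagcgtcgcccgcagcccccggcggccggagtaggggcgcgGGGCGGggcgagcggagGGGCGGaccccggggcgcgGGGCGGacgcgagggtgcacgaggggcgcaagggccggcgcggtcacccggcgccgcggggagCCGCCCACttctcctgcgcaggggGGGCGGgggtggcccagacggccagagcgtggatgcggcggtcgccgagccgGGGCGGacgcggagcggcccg

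No motif was in all 3 windows shown. Gpm6a, low in the same libraries, has 2 windows, 1 with a GC box and a TEAD match and 1 with no match, and the Muc16 window held 1 GATA match. Upk3b and Lrrn4 each held 1 TEAD match, which 14.7% of 32851 promoter windows of this length hold. Lrrn4 and Bnc1 each held 1 WT1 and EGR match, found in 31.6% of windows, and Upk3b held 1 GATA match, found in 25.3%. Bnc1 held 6 GC boxes, 1 of which overlapped its WT1 and EGR match, and 35.7% of windows hold at least 1. The GC content of the Bnc1 window was 83.3%, against a median of 52.7% over all windows. A match is a description of these letters only.

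Upk1b and Gpm6a, a further pair of membrane proteins, followed the same pattern of pools. Upk1b, a tetraspanin of urothelium and mesothelium, stood at 9.81, 0.402, 23.2, 13.9 and 2.40 CPM in CD90-negative libraries, against 17.0, 17.0, 15.6, 19.7 and 15.9 CPM in CD90-positive ones. The CD90-positive libraries were within a narrow range, while the CD90-negative ones lay on both sides of it, with pool 3 above. Gpm6a, a membrane glycoprotein known from neurons and mesothelium, stood at 8.40, 0, 14.3, 9.83 and 0.332 CPM, against 16.9, 6.34, 11.2, 10.2 and 13.1 CPM. In the CD90-negative library of pool 2 it had 0 counts, against 256 in its CD90-positive partner, at least 63.1-fold lower when 3 counts are taken as the limit that a count of 0 allows in that library. The log2 folds of -1.51 (SE 0.81) for Upk1b and -1.97 (SE 1.27) for Gpm6a did not pass, with edgeR adjusted p values of 0.288 and 0.392. Without pool 2 they were -0.81 and -1.10, and without pool 5 that of Gpm6a was -1.16. Limma-voom gave -0.56 and -0.60, and edgeR without the block -0.78 and -0.81.

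Nkain4, which encodes a protein that interacts with the sodium pump, stood at 5.47, 1.31, 8.43, 5.13 and 0.591 CPM in CD90-negative libraries, against 12.6, 3.69, 10.2, 6.54 and 5.21 CPM in CD90-positive ones. It was lower in 5 of 5 pools, but the fractions overlapped. Its log2 fold was -1.23 (SE 0.45; edgeR adjusted p = 0.112). Muc16, the membrane mucin that binds mesothelin, stood at 23.8, 5.06, 12.4, 23.9 and 10.0 CPM, against 54.1, 24.8, 7.86, 25.8 and 44.2 CPM. Pool 3 alone had more Muc16 in its CD90-negative fraction, and pool 4 hardly differed. The log2 fold of Muc16 was -1.02 (SE 0.45; edgeR adjusted p = 0.194), so it did not take the direction of Msln.

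Calb2, the calcium-binding protein calretinin used to stain human mesothelium, did not pass the filter. It had 0 counts in all 5 CD90-negative libraries, against 11, 89, 16, 25 and 1 in the CD90-positive ones of pools 1 to 5. With counts summed over each group as if it were 1 sample, 142 counts in CD90-positive libraries set the level at 0.831 CPM. The summed CD90-negative level was at least 40.4-fold lower, with 3 counts over the group as the limit. This limit does not hold pool by pool. Single pools allow only smaller limits, and 1 count in the CD90-positive library of pool 5 allows none there. Pool 2 alone held 89 of the 142 counts.

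**Figure D2:**
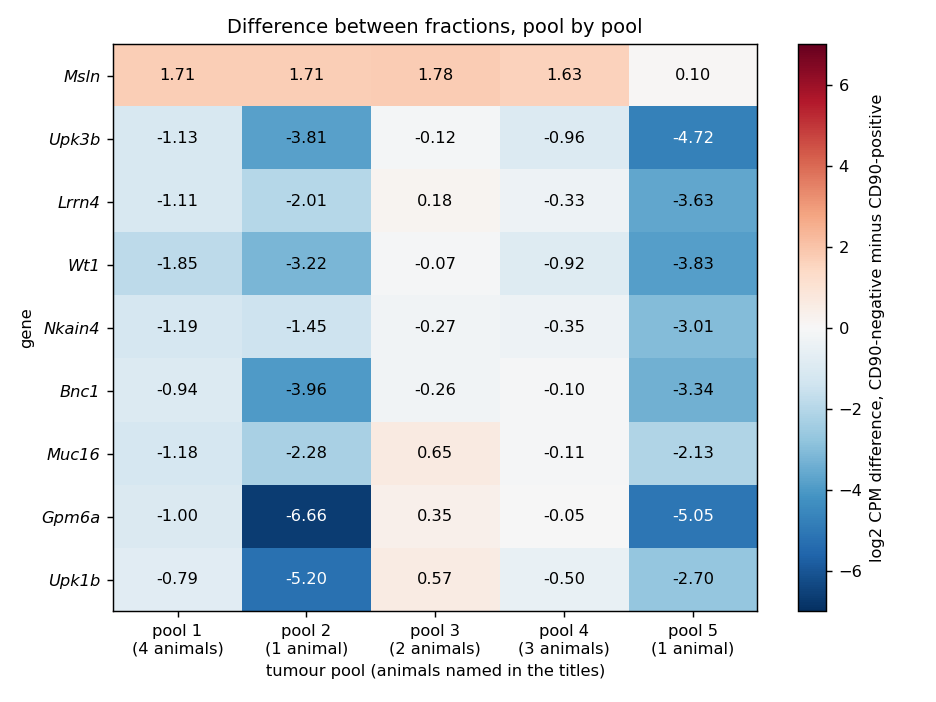
Log2 CPM difference, CD90-negative minus CD90-positive (colour and printed value, prior count of 2), for the 9 tested genes (rows) in each tumour pool (columns, with its number of animals). Differences are large and negative in pools 2 and 5 for the 8 genes other than Msln, from -6.66 to -1.45, and small in pools 3 and 4.

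The differences varied between pools. Over the 8 tested genes other than Msln, the median log2 difference was -1.12, -3.52, 0.06, -0.34 and -3.49 in pools 1 to 5. Single genes ran from -6.66 to -1.45 in pools 2 and 5 and from -0.96 to 0.65 in pools 3 and 4. The value of -6.66 is that of Gpm6a at 0 counts and depends on the prior count. The median over all 15378 genes stayed between -0.06 and 0.11 in each pool. Pools 2 and 5 are the ones whose titles name 1 animal. Whether pool size has a part in this was not tested.

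Without the block, or with any 1 pool left out, edgeR called 0 of the 8 genes lower, except that it called 2 (Wt1 and Muc16) without pool 3. The number of all genes called lower changed with these settings too. It was 1084 of 15378 in the full fit and 544 of 15378 without the block. With 1 pool left out it ran from 367 of 15447 (without pool 1) to 1199 of 14898 (without pool 3). No member other than Calb2 had CD90-negative libraries that all lay below the CD90-positive ones, which 4.62% of all tested genes did, and Msln was not fully above, as 3.32% of tested genes were.

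Levels per length were compared as TPM, which divide counts by effective length and set the sum to the same total in each library, here over nuclear protein-coding genes. In CD90-negative libraries Msln was highest, at 384 ± 136 TPM (SD, n = 5), followed by Wt1 at 105 ± 107 and Nkain4 at 38.1 ± 30.4 TPM. Upk1b, Lrrn4, Upk3b, Gpm6a, Bnc1 and Muc16 followed, with means from 29.2 to 5.63 TPM and SDs from 27.5 to 3.63 TPM, so that neighbours in this order did not differ beyond their spread. In CD90-positive libraries Wt1 came first, at 249 ± 33.6 TPM, followed by Msln at 169 ± 150, Nkain4 at 56.3 ± 28.1, Upk1b at 51.0 ± 8.33, Upk3b at 40.2 ± 10.5 and Lrrn4 at 34.7 ± 12.6 TPM. Gpm6a (16.6 ± 5.82), Muc16 (14.4 ± 7.17) and Bnc1 (14.1 ± 4.42) were close together, and Calb2 was last at 3.76 ± 4.24 TPM. By their means, Wt1 and Msln thus changed places between the fractions. Their TPM ranges overlapped in both, since Wt1 was above Msln in the CD90-negative library of pool 3 and Msln above Wt1 in the CD90-positive library of pool 5.

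The sums of fibroblast and of mesothelial genes had the same order of pools within the CD90-negative fraction. The 9 mesothelial genes without Msln summed to 133, 25.1, 246, 136 and 23.8 CPM in CD90-negative libraries, against 336, 224, 240, 203 and 238 CPM in CD90-positive ones. The 10 fibroblast genes summed to 9348, 6152, 20379, 12236 and 4058 CPM, against 54055, 43184, 32392, 49243 and 41944 CPM. Both sums ran from pool 3 down through pools 4, 1, 2 and 5 in the CD90-negative fraction. For the mesothelial sum, pools 4 and 1 lay close together, as did pools 2 and 5. Collagens made up 97.5% to 99.1% of the fibroblast counts, and single genes of both lists did not all keep this order. Postn, for example, stood at 39.5, 33.8, 15.4, 19.4 and 9.09 CPM in the CD90-negative libraries of pools 1 to 5. Of the 10 fibroblast genes 9 fell and 0 rose, beside 7.05% lower and 5.83% higher of all genes, with a median log2 fold of -2.32. Thy1, the gene of the sorted protein, is on this list and among those that fell, which the sort itself sets.

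**Figure D3:**
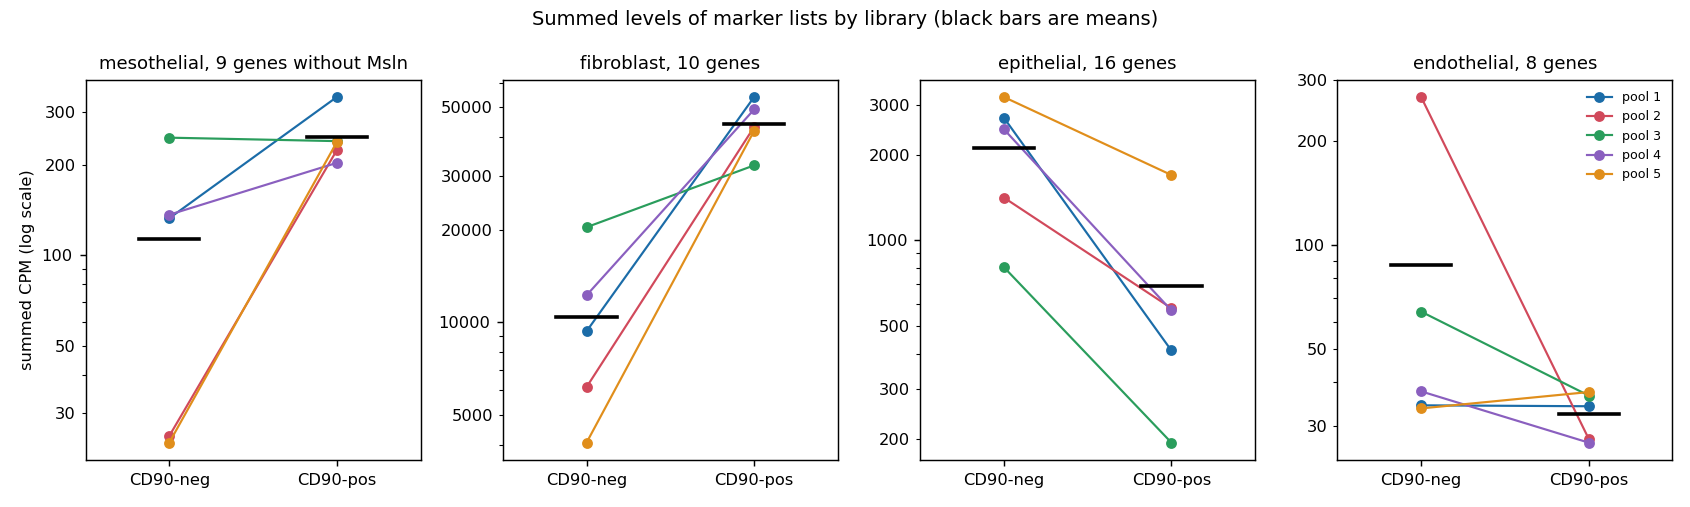
Summed CPM (log axes) of the 9 mesothelial genes without Msln and of 3 other marker lists in the fractions of each pool, with black bars for the means. In the CD90-negative fraction, pools 2 and 5 are lowest for mesothelial and fibroblast genes, and pool 2 is highest for endothelial genes.

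A ratio within each library does not depend on the scaling between libraries, and it was chosen after the values were seen. The 9 genes without Msln had 14.2, 4.08, 12.1, 11.2 and 5.87 counts per 1000 counts of the 10 fibroblast genes in CD90-negative libraries, against 6.22, 5.18, 7.40, 4.12 and 5.68 in CD90-positive ones. The ratio was higher in the CD90-negative fraction of pools 1, 3 and 4, by 2.29, 1.63 and 2.71 times. It lay at 0.787 and 1.03 times the CD90-positive value in pools 2 and 5. Collagens made up 97.5% to 99.1% of the fibroblast counts, and over the 6 fibroblast genes other than the collagens and Thy1 the 5 ratios were 1.43, 0.703, 1.54, 2.20 and 1.91 times. Single genes differed in pool 5, where the ratio was 2.35 times for Muc16 but 0.719 for Wt1, 0.374 for Upk3b and 0.263 for Gpm6a. Without Muc16 the sum of the other 8 genes stood at 2.24, 0.706, 1.60, 2.56 and 0.735 times the CD90-positive value, higher in 3 of 5 pools.

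**Figure D4:**
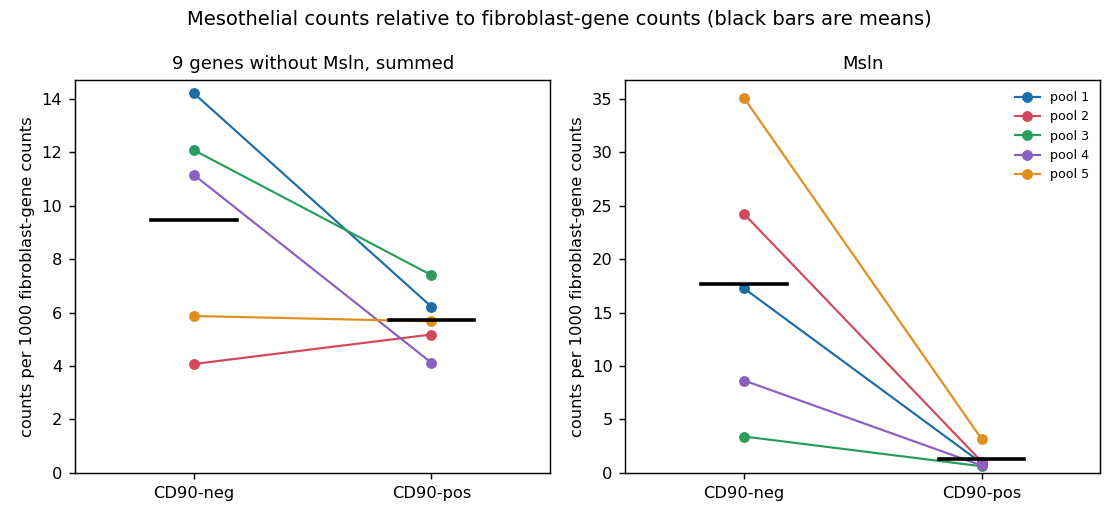
Counts of the 9 mesothelial genes without Msln (left) and of Msln (right) per 1000 counts of 10 fibroblast genes, in the CD90-negative and CD90-positive library of each pool, with black bars for the means. The 9 genes are higher in CD90-negative libraries of pools 1, 3 and 4 and about level in pool 5; Msln is higher in all 5 pools.

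Genes of other cell types differed between the libraries too. The 8 endothelial genes summed to 33.7 to 268 CPM in CD90-negative and 26.8 to 37.5 CPM in CD90-positive libraries, with 3 of 7 tested genes higher, none lower, and the highest sum in the CD90-negative library of pool 2. Over all genes, 5.83% were called higher and 7.05% lower. Of the endothelial genes, Tie1 and Cdh5 had the smallest p. Kdr gave most of the CD90-positive sums, at 27.8, 26.1, 33.7, 22.0 and 28.2 of 34.1, 27.5, 36.7, 26.8 and 37.5 CPM. It was lower in 4 of 5 pools but not called (log2 fold -0.70, edgeR adjusted p = 0.0780). The 7 pericyte genes summed to 17.1 to 195 CPM, against 108 to 227 CPM, with Des called lower and again the highest CD90-negative sum in pool 2. This list went both ways, with a median log2 fold of -1.65. Rgs5 was not called but was higher in 5 of 5 pools (log2 fold 3.14, edgeR adjusted p = 0.111). Its CD90-negative mean was 7.52 ± 12.7 CPM, against 0.338 ± 0.275 CPM (SD, n = 5 pools). The 8 macrophage genes were low in both fractions, at 9.79 to 34.8 against 7.58 to 12.97 CPM, with 0 of 6 tested genes called by edgeR and 1 (C1qa) at an unadjusted p under 0.05. No gene of these 3 lists was at 0 throughout a fraction. The part of these cells in the mesothelial values was not tested.

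Genes of antigen-presenting CAFs showed no common direction. Of 9 tested, 1 rose and 1 fell, beside 5.83% higher and 7.05% lower of all genes. Cd74, the class II invariant chain, rose (log2 fold 1.20, SE 0.30, edgeR adjusted p = 0.0286). H2-DMb1, a class II peptide-loading subunit, fell (-2.99, SE 0.87, edgeR adjusted p = 0.0499). The summed level of the 9 genes ran from 25.8 to 151 CPM in CD90-negative and from 54.8 to 161 CPM in CD90-positive libraries. Saa3 and Slpi, of which Slpi is also on the list of other mesothelial genes, made up much of this sum. The 7 class II pathway genes without them summed to 34.9, 13.3, 19.3, 22.7 and 24.4 CPM in CD90-negative libraries of pools 1 to 5, against 27.7, 19.9, 22.9, 13.8 and 21.8 CPM in CD90-positive ones.

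Other genes of the mesothelium were mixed, with more that fell than rose. Of 20 such genes, 19 were tested, 6 fell and 2 rose, beside 7.05% lower and 5.83% higher of all genes. The list had a median log2 fold of -1.21. Those that fell were Aldh1a2, the retinoic acid-forming enzyme (log2 fold -2.06, SE 0.35), Cdh2, the neural cadherin (-1.98, SE 0.47), Igfbp6, an insulin-like growth factor binding protein (-1.94, SE 0.49), Hp, haptoglobin (-1.85, SE 0.36), Pdpn, podoplanin (-1.82, SE 0.47), and Rspo1, an enhancer of Wnt signalling (-1.30, SE 0.29). Fibroblasts also express Aldh1a2, Cdh2, Igfbp6 and Pdpn. Without pool 1 or pool 2, 2 genes of the list were called lower, without the block 1, and with no filter on low counts 12. Over all genes tested, those called lower were 367 of 15447 without pool 1 and 674 of 15545 without pool 2. They were 544 of 15378 without the block and 1598 of 28069 with no filter.

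**Figure D5:**
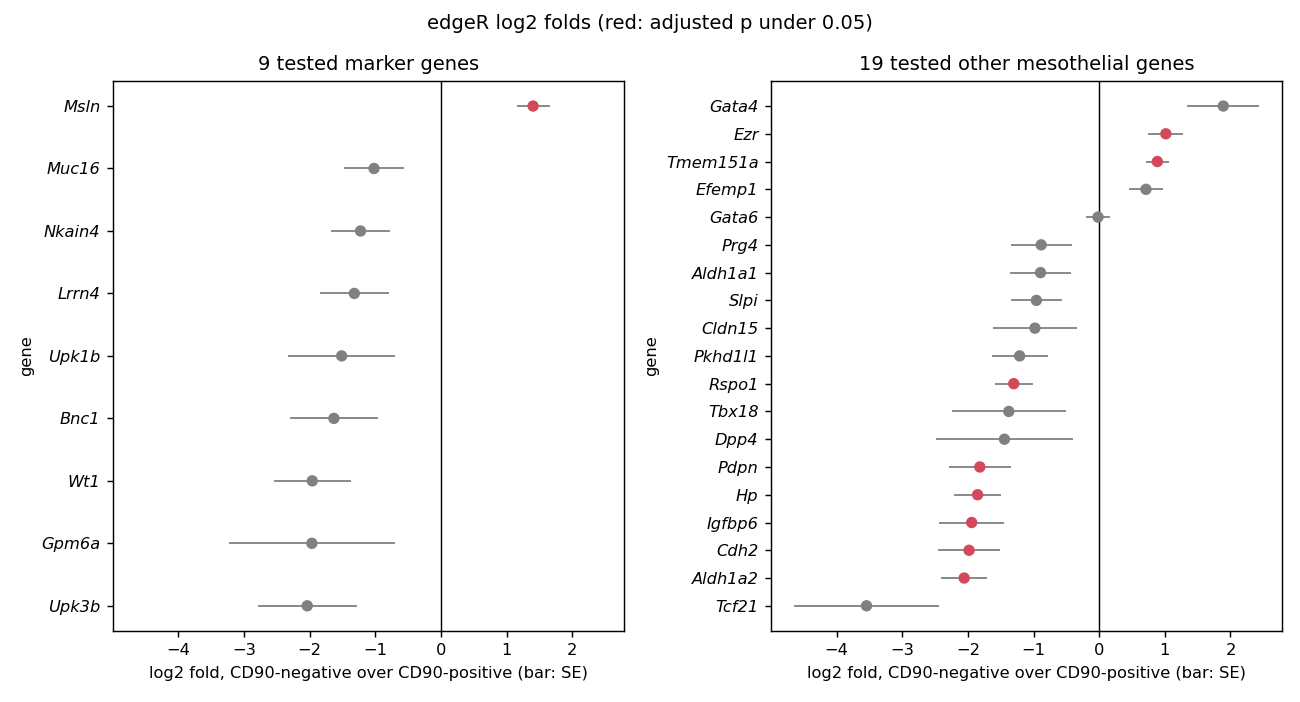
edgeR log2 folds, CD90-negative over CD90-positive, with their SE (bars), for the 9 tested marker genes and for 19 other mesothelial genes; red points have an adjusted p under 0.05. Msln is the called marker gene, and 8 of the 19 other genes are called, 2 of them higher.

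The 2 that rose were Ezr, a linker of membrane and actin in epithelia (log2 fold 1.02, SE 0.27, edgeR adjusted p = 0.0370), and Tmem151a (0.89, SE 0.18, adjusted p = 0.0107). Ezr averaged 794 ± 278 CPM in CD90-negative cells, against 376 ± 82.1 CPM in CD90-positive cells (SD, n = 5 pools), and was higher in 4 of 5 pools. The keratins Krt8, Krt18, Krt19 and Krt7, shared by mesothelium and cancer epithelium, all rose, by log2 folds of 1.48, 2.04, 1.39 and 1.81, with adjusted p values up to 0.0394. They took the direction of Msln, and 5.83% of all genes were called higher. These 4 keratins and Muc1 are also members of the cancer epithelial list, so the lists are not separate counts.

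Paralogs of the marker genes were mixed. Of 16 fixed for this, 6 were tested. Of these, 2 fell and 1 rose, beside 7.05% lower and 5.83% higher of all genes. Bnc2 fell, as given above, Lrrn2 fell (log2 fold -2.39, SE 0.41, edgeR adjusted p = 0.0086), and the mucin Muc1 rose (2.62, SE 0.34, adjusted p = 0.0038). The uroplakins Upk2 and Upk3a and the calbindin Calb1 had 0 counts in all 10 libraries, and Upk1a had at most 6 counts in any library. Nkain2 had 34, 16, 1, 21 and 57 counts in CD90-negative libraries, against 0 in all 5 CD90-positive ones.

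The log2 CPM of the 9 tested marker genes were each scaled to the same mean and spread and averaged per library. Among 10822 genes, those most like this average over the 10 libraries were Pkhd1l1, C3, Cfb, Lamc3, Dpp4, Zbtb7c, Arhgap20 and Aldh1a1, with Pearson's r from 0.948 to 0.983. Msln is part of the average, although its r with the other tested marker genes ran from -0.69 (Wt1) to -0.04 (Muc16). Pkhd1l1, Dpp4 and Aldh1a1 belong to the list of other mesothelial genes, and C3 and Cfb are components of the complement system. The libraries share pools and fractions, so these values are a description. Between the fractions their edgeR adjusted p values ran from 0.0843 to 0.442.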

How the data were processed

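RNA was measured in 10 libraries, 5 per CD90 fraction, made with a stranded low-input kit per the labels' protocols. The deposited files hold an estimated count and an effective length per transcript, made with Salmon 1.9.0 on GRCm39 per the submitters' processing notes. No source used here gives the annotation release or the strand setting, and Bnc1 and Nkain4 overlap antisense genes. Transcripts were matched without version to GENCODE M21, used for names only (133666 of 144584 matched, 36 of 37 annotated transcripts of the marker genes). Reads on unmatched transcripts were left out.

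Estimated counts were summed per gene, rounded and tested with edgeR 4.0.16 (filterByExpr, TMM, quasi-likelihood test, Benjamini-Hochberg over 15378 genes, threshold 0.05), with the pool as a block. The block rests on the shared animals. Deviations of the 2 libraries of a pool correlated by 0.06, 0.00, 0.46, 0.03 and 0.19. CPM refer to TMM-scaled libraries, and log2 CPM use a prior count of 2. The SE of an edgeR log2 fold was derived as its absolute value over the square root of the F statistic of the quasi-likelihood test. DESeq2 1.42.0, limma 3.58.1 and other settings were alternatives. The pipeline was tested on simulated data. PCR without molecular identifiers makes counts overstate molecules. With the pool as a block, p values cover how the difference between fractions varied from pool to pool, not the spread of levels between pools.

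The named genes are the markers, Thy1, the called genes of the mesothelial, keratin and paralog lists, up to 2 genes with the smallest p of each other list, and the 8 most alike genes by Pearson's r. Other named genes (Cdh1, Epcam, Postn, Kdr, Rgs5, Saa3, Slpi, Erbb3, Gata4, Gata6, Tcf21, Nkain2, Upk1a and those at 0 counts) were chosen after their values were seen. Members and lists were chosen with earlier results of these data known.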

Additional observations from a re-analysis of the deposited data

Results flagged for a closer look

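In each fraction the highest and lowest of 5 libraries were compared with the other 4, in 49 groups of values. By Dixon's 95% critical value for the gap over the range, 8 values stood apart, and chance alone sets apart about 1 group in 20. Most came from a pair of libraries that each come from a pool of 1 animal.

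In the CD90-positive library of pool 5, Msln stood at 133 CPM, against 20.1 to 49.3 CPM in the other 4. The summed cancer epithelial markers stood at 1699 CPM there (194 to 578 in the others), the 4 keratins at 1209 CPM (169 to 446) and the neural list at 40.5 CPM (10.0 to 15.7). Of the last, Erbb3, also expressed in epithelium, gave 33.3 CPM, and the rest of the list summed to 7.17 CPM (8.90 to 10.8). The list for antigen-presenting CAFs had its lowest sum there, at 54.8 CPM (133 to 161), while its 7 genes other than Saa3 and Slpi summed to 21.8 CPM (13.8 to 27.7).

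For CD90-negative cells of pool 2, the endothelial sum was 268 CPM (33.7 to 64.1 in the others) and the pericyte sum 195 CPM (17.1 to 60.2). In the CD90-positive library of pool 1, the 9 mesothelial genes without Msln summed to 336 CPM (203 to 240).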

How the results depend on the processing

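No tested marker gene changed direction in 15 other settings, but log2 folds moved, as for Gpm6a from -5.53 with a covariate for mitochondrial rRNA to -0.60 with limma-voom, beside -1.97. Msln was called higher in 13 of them; 0 members were called higher without the block for the pool (replicate block left out) and 0 with this covariate. Members called lower numbered 9 with no filter on low counts (Calb2 included), 7 with DESeq2, 1 with limma-voom, 1 on nuclear protein-coding genes alone and from 0 to 2 with 1 pool left out. Of all genes tested, 1598 of 28069 were called lower with no filter and 1814 of 15378 with DESeq2. Limma-voom called 1159 of 15378 lower, and edgeR on nuclear protein-coding genes alone 1092 of 13075. With 1 pool left out, edgeR called from 367 of 15447 (without pool 1) to 1199 of 14898 (without pool 3) lower. All genes called numbered 965 without the replicate block, 3452 with DESeq2, 0 with the covariate (882 at an unadjusted p under 0.05), 541 without pools 4 and 5, and 675 to 2019 with 1 pool left out, against 1980. Among other mesothelial genes, 4 were called higher with DESeq2, 1 with a length offset, 0 with the covariate, 0 without pools 4 and 5 and 1 to 3 with 1 pool left out. Called lower were 1 without the block, 12 with no filter, 0 with the covariate, 1 without pools 4 and 5 and 2 to 6 with 1 pool left out. The causes were not tested. The ratio of counts of the 9 mesothelial genes without Msln to fibroblast counts, added later, was compared between fractions. Its mean log2 difference was 0.61, with an SD of 0.75 over the 5 pools. The mean was 0.45 without Muc16, and 0.40 to 0.85 with 1 pool left out. Depth limits Calb2 most, at 142 counts in all.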

Other observations

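Of the other mesothelial genes that did not pass, Gata4, a transcription factor of mesothelium and foregut, was at 10.3 ± 3.10 CPM in CD90-negative cells, against 3.89 ± 2.85 CPM in CD90-positive cells (SD, n = 5 pools). Its log2 fold of 1.89 (SE 0.55) missed the threshold with an edgeR adjusted p of 0.0508, and it was higher in 5 of 5 pools. Its relative Gata6 was at 48.6 ± 19.5 CPM, against 47.1 ± 9.45 CPM. Tcf21, a mesenchymal transcription factor, was at 0.177 ± 0.219 CPM, against 1.68 ± 1.49 CPM, lower in 5 of 5 pools (log2 fold -3.54, SE 1.10; edgeR adjusted p = 0.0624). These 3 genes were named after their values were seen.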
